A study of Homo sapiens with 6 samples.

Results

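The genes described are the transcription factors that drive the epithelial-mesenchymal transition (EMT), namely SNAI1, SNAI2, ZEB1, ZEB2, TWIST1 and TWIST2, together with the epithelial and neural cadherins CDH1 and CDH2, the intermediate filament gene VIM and the matrix gene FN1. They were chosen by symbol, and each of the 10 symbols named 1 row of a count table of 59653 genes. RNA was sequenced from SKOV3 (SK-OV3), an established human ovarian carcinoma cell line labelled as wildtype, in 6 libraries. In 3 libraries the cells had received siPVT1, a pool of 4 siRNAs against the lncRNA PVT1, and in the other 3 siControl, a non-targeting siRNA pool. Both pools were given at 50 nM with the same lipid reagent, and RNA was taken after 48 h in full serum. The contrast asks which genes change when PVT1 is lowered in these cells, and its limits are that 1 cell line, 1 pool and 1 time point were used.

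In EMT, epithelial cells loosen their junctions, lose polarity and take on a motile, matrix-producing state. SNAI and ZEB proteins are zinc finger repressors that bind E-box sequences, with CDH1 as their best known target, and TWIST proteins are basic helix-loop-helix factors that act through E-boxes as heterodimers. The ZEB genes and the microRNAs of the miR-200 family repress each other, which is the best described switch between both states. In ovarian carcinoma many cells hold epithelial and mesenchymal features side by side, and spread through the peritoneal fluid involves changes in adhesion to other cells and to matrix such as fibronectin.

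Total counts per library ranged from 28383171 to 35059576. Levels are given as CPM, each gene's share of its library scaled to 1000000 counts, after TMM scaling, which corrects for differences in composition between libraries. PVT1, the targeted gene, was measured at 106, 131 and 108 CPM in siControl replicates 1, 2 and 3 and at 75.5, 67.8 and 66.3 CPM in siPVT1 replicates 1, 2 and 3. The gene fell, with a log2 fold change of −0.72 (SE 0.097, adjusted p = 0.000342 by the quasi-likelihood F test of edgeR, adjusted over all genes tested after Benjamini and Hochberg (BH)), and all siPVT1 libraries lay below all siControl libraries. The siPVT1 libraries varied more among themselves, with a biological coefficient of variation of 14.1% against 5.72% in siControl. Of the markers of the line, KRT8 and KRT18 stood at rank 773 and 288 of 16176 genes by CPM per kilobase of exon in siControl. ERBB2, known to be amplified in SK-OV3, ranked 7436, at 42.6, 38.2 and 39.6 CPM in siControl, and EPCAM was measured at 2.08, 4.09 and 3.15 CPM. Of the 12 line markers tested, 25% were called, beside 21.5% of all genes tested. KRT19 and SOX17 were called higher and WT1 lower, with log2 fold changes of 2.30, 1.09 and −1.01. The call of WT1 was lost without siControl replicate 1 or 3 or siPVT1 replicate 1. The identity of the line was taken from its label. Of 25 marker genes of blood, vessel, stromal, muscle, fat and mesothelial cells, 3 were at 0 in all libraries and 9 never exceeded 3 counts, among them PTPRC and CD3E of leukocytes. In this list 7 of 15 tested genes were called higher and 3 lower, beside 11.8% and 9.64% of all genes tested. The counts were 4 and 1 without siPVT1 replicate 2, and 1 was called lower without siControl replicate 1 or 3 or siPVT1 replicate 3. PECAM1, MSLN and ITGAM had log2 fold changes of 2.99, 2.94 and −4.06. LYZ, of the same list, was not called and had 19, 246 and 5 counts in siControl and 14, 79 and 13 in siPVT1 replicates 1, 2 and 3. The summed level of the list was 64.2 to 71.2 CPM in siControl and 69.3 to 98.8 CPM in siPVT1.

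The SNAI genes fell and the ZEB genes, the TWIST genes, VIM and FN1 rose, while the change of neither cadherin passed the test. All 10 genes passed the filter on low counts. At an adjusted p under 0.05, 8 of the 10 changed, where 57.9% of the 19008 genes tested did so. They were 6 higher and 2 lower in siPVT1, beside 29.5% and 28.4% of all genes tested. With a log2 fold change of at least 1 added, 2 of the 10 were called, beside a background of 21.5% of all genes tested. These were FN1, higher like 11.8% of all genes tested, and SNAI1, lower like 9.64%. In 8 of the 10 the libraries of both groups did not overlap, which held for 65.6% of all genes tested. The median log2 fold change of the 10 was 0.25 and that of all genes tested was 0.001. The count past both thresholds thus lies near the background of a contrast in which most genes changed. At the adjusted p alone the share higher was above that of all genes tested, in only 10 genes chosen with earlier results known. The description that follows turns on single genes. In an exact two-sided permutation test of 3 libraries against 3, p cannot go below 0.1.

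**Figure D1:**
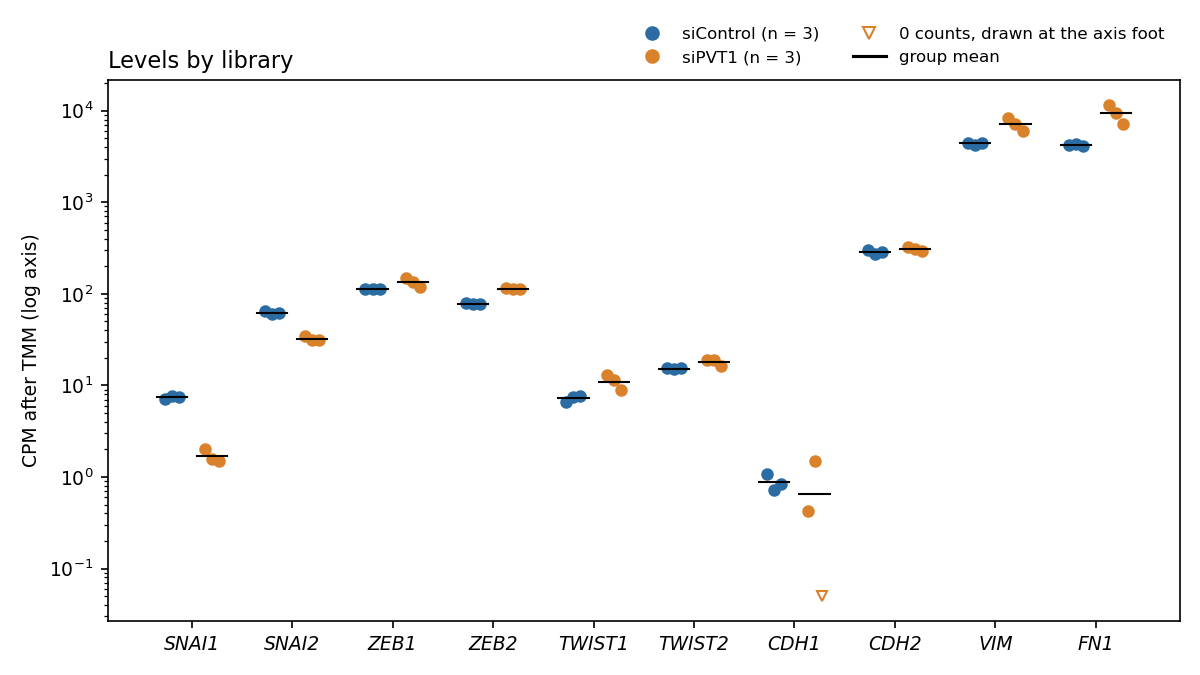
CPM after TMM scaling of each gene in each library, on a log axis. Blue points are the 3 siControl libraries, orange points the 3 siPVT1 libraries in replicate order from left to right, black lines the group means, and the open triangle marks the siPVT1 library with 0 CDH1 counts. SNAI1 and SNAI2 lie lower in siPVT1, VIM and FN1 lie higher, and the CDH1 libraries of both groups overlap.

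**Figure D2:**
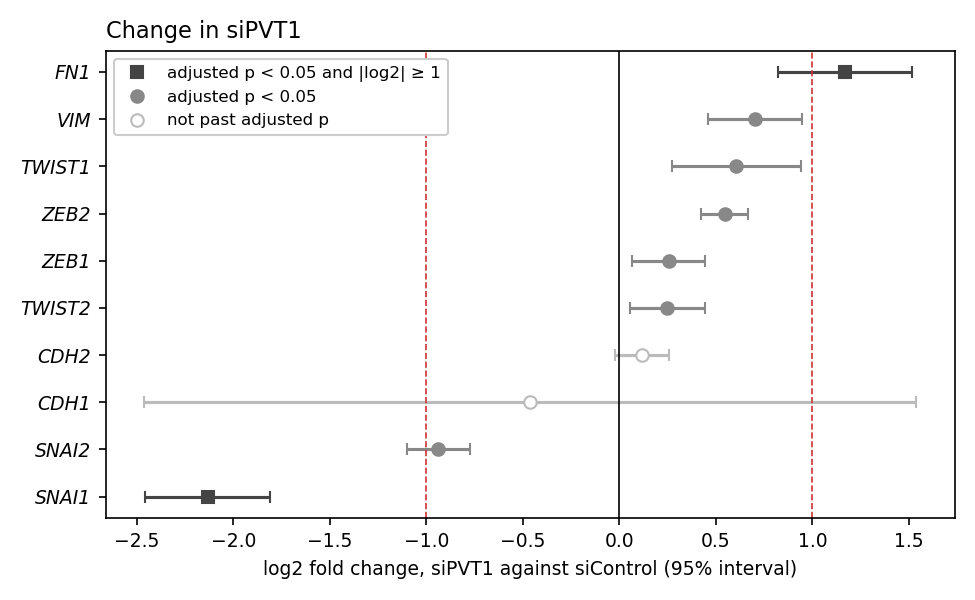
Log2 fold change of each gene in siPVT1 against siControl, with its 95% interval from the quasi-likelihood fit. Squares passed the adjusted p and the fold threshold, filled circles the adjusted p alone, open circles neither, and dashed lines mark log2 fold changes of −1 and 1. SNAI1 at −2.13 and FN1 at 1.17 stand at the ends, and the interval of CDH1 runs from −2.46 to 1.54.

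SNAI1, which encodes the zinc finger repressor Snail, had the largest change of the 10. It was measured at 7.04, 7.69 and 7.45 CPM in siControl replicates 1, 2 and 3 and at 2.003, 1.58 and 1.48 CPM in siPVT1 replicates 1, 2 and 3. Every siPVT1 library was far below the lowest siControl library. The counts behind these levels were 230, 237 and 251 in siControl and 56, 45 and 49 in siPVT1, so the gene was low in CPM but well counted in both groups. The mean fell from 7.39 ± 0.331 (SD, n = 3) to 1.69 ± 0.278 CPM (SD, n = 3), a log2 fold change of −2.13 (SE 0.1404, 95% interval −2.46 to −1.81, adjusted p = 9.12e-06 by the edgeR quasi-likelihood F test, BH-adjusted). This leaves 0.228 of the siControl level. SNAI1 (ENSG00000124216) is a protein-coding gene at 49982980 to 49988886 on chromosome 20 (GRCh38, plus strand).

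SNAI2 encodes Slug, the second SNAI repressor, and is the more abundant of both genes in these cells. Its levels were 64.5, 60.7 and 61.6 CPM in siControl and 34.9, 31.7 and 30.9 CPM in siPVT1. The groups did not overlap, and the siPVT1 libraries lay close together. The mean fell from 62.3 ± 2.01 (SD, n = 3) to 32.5 ± 2.12 CPM (SD, n = 3), a log2 fold change of −0.94 (SE 0.0702, adjusted p = 1.64e-05 by the edgeR quasi-likelihood F test, BH-adjusted). Its 95% interval, −1.10 to −0.78, includes the fold threshold, and scaling by the total count or leaving out siPVT1 replicate 1 takes SNAI2 past it, at −1.09 and −1.01. Per kilobase of exon, SNAI2 stood 4.77, 4.10 and 4.30 times above SNAI1 in the siControl libraries and 9.06, 10.4 and 10.9 times above it in the siPVT1 libraries. SNAI2 (ENSG00000019549) lies at 48917598 to 48921740 on chromosome 8 (GRCh38, minus strand), which also holds PVT1 at 127794526 to 128187101 (plus strand).

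The third member of the family, SNAI3, was near the limit of counting, with 4 counts in each siControl library and 22, 15 and 13 in siPVT1 replicates 1, 2 and 3. It was called higher, with a log2 fold change of 2.16 (SE 0.406, adjusted p = 0.00216 by the edgeR quasi-likelihood F test, BH-adjusted). The SNAI genes therefore did not move together. The most abundant, SNAI2, and SNAI1 fell, and the one that rose stayed under 1 CPM in every library.

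ZEB1 and ZEB2 encode large zinc finger and homeodomain repressors, and both were well counted. By CPM per kilobase of exon union they ranked 2995 and 8328 of 16176 genes in siControl. ZEB1 was measured at 113, 112 and 113 CPM in siControl and at 149, 134 and 119.8 CPM in siPVT1 replicates 1, 2 and 3. The siPVT1 libraries differed among themselves, and the lowest of them stood only a little above siControl. The mean rose from 113 ± 0.969 (SD, n = 3) to 134 ± 14.7 CPM (SD, n = 3), a log2 fold change of 0.26 (SE 0.0822, adjusted p = 0.0271 by the edgeR quasi-likelihood F test, BH-adjusted). This call was lost with scaling by the total count (0.11, adjusted p = 0.294 by the same test) and when any library other than siPVT1 replicate 3 was left out, with log2 fold changes from 0.16 to 0.25 and an adjusted p of at most 0.0845. Scaling by the total count moved the median of all genes tested to −0.148, so relative to that median the change of ZEB1 was similar.

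ZEB2 gave the tightest difference of the 10. It was measured at 79.8, 77.2 and 77.8 CPM in siControl and at 115, 113 and 114 CPM in siPVT1. The libraries of each group were almost level, and the groups were far apart. The mean rose from 78.3 ± 1.34 (SD, n = 3) to 114 ± 0.982 CPM (SD, n = 3), a log2 fold change of 0.55 (SE 0.0529, adjusted p = 5.99e-05 by the edgeR quasi-likelihood F test, BH-adjusted). It passed the adjusted p of a change from 0 under each alternative that was run, with log2 fold changes from 0.40 to 0.55, and did not pass the test against a 2-fold change. The ratio of ZEB1 to ZEB2 per kilobase of exon union was 4.28, 4.37 and 4.402 in siControl and 3.92, 3.59 and 3.17 in siPVT1. Every siPVT1 library had a lower ratio than every siControl library. The size of this ratio depends on the length taken for ZEB2, since the union of its exons spans 26.2 kb and its longest transcript 9.58 kb.

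ZEB1 (ENSG00000148516) lies at 31318495 to 31529814 on chromosome 10 (plus strand), and ZEB2 (ENSG00000169554) at 144364364 to 144521057 on chromosome 2 (minus strand), both in GRCh38 and both protein coding. Each has an antisense lncRNA whose exons overlap its own, over 396 bases for ZEB1-AS1 and 1299 bases for ZEB2-AS1. Without a stated strand setting, reads in these stretches cannot be assigned to one partner. ZEB1-AS1 was measured at 6.03, 5.97 and 5.10 CPM in siControl and at 6.58, 7.09 and 4.92 CPM in siPVT1, and ZEB2-AS1 had at most 6 counts in a library. Both were thus low beside their sense genes.

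The miR-200 family is shown because its members pair with the ZEB mRNAs through their seeds, and because the loci that encode them are rows of the count table. The mature sequences, from RefSeq (GRCh38.p14), are given 5′ to 3′ with the seed, bases 2 to 8, in capitals.
hsa-miR-200b-3p: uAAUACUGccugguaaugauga
hsa-miR-200c-3p: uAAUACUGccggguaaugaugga
hsa-miR-429: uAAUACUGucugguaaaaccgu
hsa-miR-200a-3p: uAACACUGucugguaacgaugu
hsa-miR-141-3p: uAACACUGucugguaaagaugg
The first 3 share the seed AAUACUG, and the last 2 share AACACUG, which differs from it in 1 base. In the longest annotated 3′ UTR of each gene (GENCODE v44), the reverse complements of these seeds were found 9 times in ZEB1 and 9 times in ZEB2, where 0.0416% of 19226 genes have as many. FN1 held 2 such matches, SNAI2 held 1, and none was found in SNAI1, TWIST1, TWIST2, CDH1, CDH2 and VIM, while 29.6% of all genes held at least 1. The stretches searched were longest in ZEB1 (2549 bases) and ZEB2 (5370), against 322 in VIM to 2038 in CDH1 for the other members. Longer stretches can hold more matches, and neither the matches nor the share of genes was corrected for length. These are letter matches and not measured sites. MIR200CHG, the host transcript of miR-200c and miR-141, had 3 counts in siControl replicate 3 and 0 in every other library, and MIR200A, MIR200B, MIR200C, MIR141 and MIR429 were at 0 counts in all 6. The libraries were prepared from mRNA, so mature microRNAs were not measured.

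TWIST1 and TWIST2, basic helix-loop-helix factors known from mesoderm and skeletal development, were both higher in siPVT1. By CPM per kilobase of exon union they ranked 7693 and 5128 of 16176 genes in siControl. TWIST1 was measured at 6.61, 7.50 and 7.57 CPM in siControl and at 12.8, 11.4 and 8.81 CPM in siPVT1 replicates 1, 2 and 3. The groups did not overlap, but siPVT1 replicate 3 stood close to the highest siControl library. The mean rose from 7.22 ± 0.535 (SD, n = 3) to 11.02 ± 2.04 CPM (SD, n = 3), a log2 fold change of 0.61 (SE 0.146, 95% interval 0.27 to 0.94, adjusted p = 0.00736 by the edgeR quasi-likelihood F test, BH-adjusted). It passed the adjusted p of a change from 0 under each alternative that was run, with log2 fold changes from 0.46 to 0.73, and did not pass the test against a 2-fold change.

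TWIST2 was measured at 15.4, 14.96 and 15.3 CPM in siControl and at 18.96, 18.95 and 16.5 CPM in siPVT1 replicates 1, 2 and 3. Again replicate 3 was the siPVT1 library nearest to siControl. The log2 fold change was 0.25 (SE 0.0844, 95% interval 0.05 to 0.44, adjusted p = 0.0336 by the edgeR quasi-likelihood F test, BH-adjusted). The call did not hold in DESeq2 (log2 fold change 0.24, adjusted p = 0.0582), without a filter on low counts (0.25, adjusted p = 0.0685), with the replicate number as a block (0.25, adjusted p = 0.0624) or with scaling by the total count (0.10, adjusted p = 0.335). It was also lost without any 1 library other than siPVT1 replicate 3, at log2 fold changes of 0.20 to 0.25 and an adjusted p of at most 0.129. TWIST1 (ENSG00000122691) lies at 19020991 to 19117636 on chromosome 7 (minus strand), and TWIST2 (ENSG00000233608) at 238848032 to 238910534 on chromosome 2 (plus strand), in GRCh38.

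Among 15 tested genes of the 18 other factors listed for EMT or as TWIST1 partners, 7 were higher and 4 lower at the adjusted p, beside 29.5% and 28.4% of all genes tested. Both thresholds were passed by 3 and 1 of these, 26.7% of the list beside 21.5% of all genes tested. HMGA2, an architectural chromatin protein that acts upstream of SNAI and TWIST genes, was measured at 295, 308 and 291 CPM in siControl and at 589, 655 and 667 CPM in siPVT1. ETS1, a transcription factor of matrix and vessel genes, was measured at 706, 672 and 690 CPM in siControl and at 1532, 1405 and 1293 CPM in siPVT1. Their log2 fold changes were 1.10 (SE 0.0664, adjusted p = 6.17e-06) and 1.03 (SE 0.0723, adjusted p = 1.19e-05) by the edgeR quasi-likelihood F test, BH-adjusted. The factor called lower was PRRX1, a homeobox gene, at 1.16, 1.30 and 1.16 CPM in siControl and 0.394, 0.421 and 0.574 CPM in siPVT1. With scaling by the total count HMGA2 and ETS1 fell short of the fold threshold, at 0.95 and 0.88, and SNAI3 alone of these factors passed it upward. The number called higher also went from 3 to 1 without siPVT1 replicate 1.

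Of 16 corepressors and chromatin enzymes that SNAI or ZEB proteins recruit, 6 were higher and 2 lower at the adjusted p, beside 57.9% of all genes tested in either direction. Both thresholds were passed by 1, beside 21.5% of all genes tested. With scaling by the total count or without siPVT1 replicate 3, 5 were lower. The gene past both thresholds was LOXL2, a lysyl oxidase that binds Snail in the nucleus and crosslinks collagen outside the cell. LOXL2 was measured at 399, 381 and 391 CPM in siControl and at 967, 868 and 763 CPM in siPVT1, a log2 fold change of 1.15 (SE 0.0874, adjusted p = 1.76e-05 by the edgeR quasi-likelihood F test, BH-adjusted). Of 14 tested kinases, ubiquitin ligases and deubiquitinases that set the stability of SNAI, ZEB or TWIST proteins, 4 were higher and 3 lower at the adjusted p, beside the same 57.9%. None passed both thresholds, beside the same 21.5%. The number higher was 2 without siControl replicate 3 or siPVT1 replicate 2, and scaling by the total count gave 2 higher and 6 lower. The median of that list was −0.05, near that of all genes tested, and the proteins themselves were not measured.

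CDH2, which encodes N-cadherin, dominated over CDH1, which encodes E-cadherin, in every library. CDH2 was measured at 297.5, 275 and 285 CPM in siControl and at 325, 312 and 294 CPM in siPVT1 replicates 1, 2 and 3. The groups overlapped, with siPVT1 replicate 3 below siControl replicate 1. The mean was 286 ± 11.1 CPM (SD, n = 3) in siControl and 310 ± 15.2 CPM (SD, n = 3) in siPVT1, and the log2 fold change of 0.12 (SE 0.0615, 95% interval −0.02 to 0.26) did not pass (adjusted p = 0.136 by the edgeR quasi-likelihood F test, BH-adjusted). The sign of this difference turned with scaling by the total count (−0.032, adjusted p = 0.643), and without siPVT1 replicate 3 it passed the adjusted p at 0.14 (adjusted p = 0.0248).

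CDH1 was at the edge of detection. It had 35, 22 and 28 counts in siControl replicates 1, 2 and 3 and 12, 43 and 0 counts in siPVT1 replicates 1, 2 and 3, which is 1.07, 0.714 and 0.831 CPM against 0.429, 1.51 and 0 CPM. The 0 in siPVT1 replicate 3 allows up to 3 counts, or 0.0906 CPM, and covers counting error only. The highest and the lowest library were thus both siPVT1 libraries. The log2 fold change of −0.46 had an SE of 0.869 and a 95% interval from −2.46 to 1.54 (adjusted p = 0.676 by the edgeR quasi-likelihood F test, BH-adjusted), so a change of CDH1 in either direction was not detectable at this level. Its sign turned without siPVT1 replicate 3, to 0.14 (adjusted p = 0.804), and without siPVT1 replicate 2 it was −2.11 (adjusted p = 0.0825). By CPM per kilobase CDH1 ranked 14272 of 16176 genes in siControl.

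Per kilobase of exon, CDH2 stood 197, 273 and 243 times above CDH1 in siControl replicates 1, 2 and 3. In siPVT1 the ratio was 536 in replicate 1, 146 in replicate 2 and, set against the limit of 3 counts, at least 2302 in replicate 3. The siPVT1 ratios enclosed all siControl ratios, and their spread came from CDH1, since CDH2 varied by 4.91% (coefficient of variation) among these libraries. CDH1 (ENSG00000039068) lies at 68737292 to 68835537 on chromosome 16 (plus strand), and CDH2 (ENSG00000170558) at 27932879 to 28177946 on chromosome 18 (minus strand), in GRCh38.

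Some other low epithelial genes followed the order of CDH1 among the siPVT1 libraries, with replicate 2 highest and replicate 3 lowest. Counted after the values were seen, this order held in 19 of 56 tested genes (33.9%) of the lists of epithelial factors, epithelial junctions and line markers, and in 11.4% of all genes tested. The 3 genes given next were picked from these 19, so their order is no further evidence. MUC16, which encodes the ovarian carcinoma antigen CA125, was measured at 6.404, 20.4 and 0.574 CPM in siPVT1 replicates 1, 2 and 3 and at 12.9, 9.61 and 20.1 CPM in siControl. ESRP1, an epithelial splicing factor, was measured at 0.358, 1.09 and 0.121 CPM in siPVT1 and at 1.25, 0.876 and 1.16 CPM in siControl. MAL2, an apical transport protein, was at 0.608, 2.35 and 0.453 CPM in siPVT1 and at 1.90, 1.36 and 2.11 CPM in siControl. For each of the 3 genes, as for CDH1, siPVT1 replicate 2 lay within or above the siControl range and siPVT1 replicates 1 and 3 lay below it. None of them passed the adjusted p, and the part of this shared order in the spread of CDH1 was not tested.

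**Figure D3:**
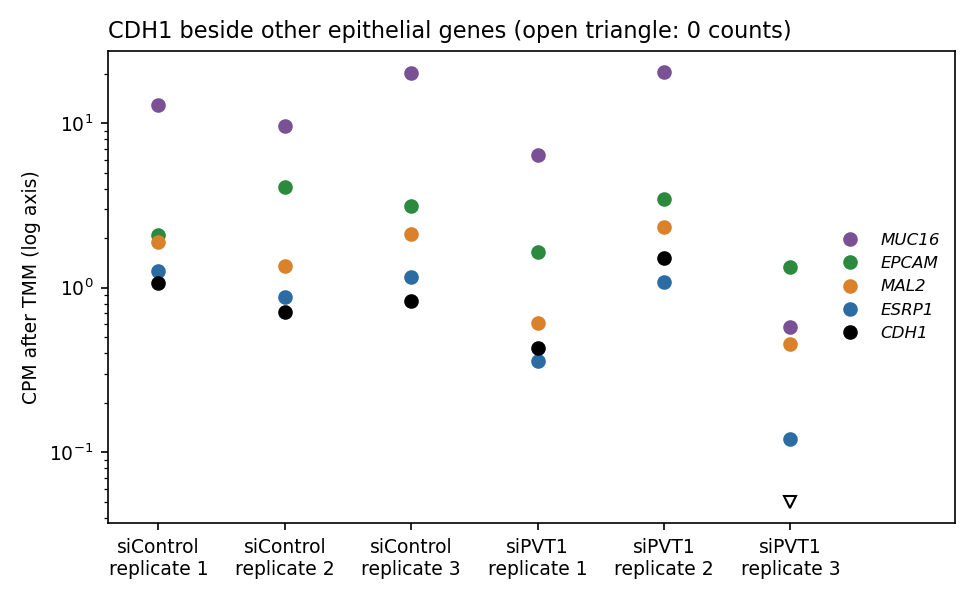
CPM after TMM scaling of CDH1 and of 4 other low epithelial genes in each of the 6 libraries, on a log axis. An open triangle marks 0 counts. The 4 genes were picked from those with the order of CDH1 among the siPVT1 libraries, replicate 2 highest and replicate 3 lowest. That they share this order was therefore set by the choice. MUC16 runs from 0.574 to 20.4 CPM among these libraries.

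Of 21 other cadherin genes, 9 were expressed well enough to be tested, 2 of which were higher and 2 lower at the adjusted p, beside 29.5% and 28.4% of all genes tested. Of the 9, 33.3% passed both thresholds, beside 21.5% of all genes tested. CDH5, which encodes VE-cadherin, known from endothelial junctions, rose most. It was measured at 63.9, 64.4 and 64.2 CPM in siControl and at 336, 296 and 265 CPM in siPVT1 replicates 1, 2 and 3, a log2 fold change of 2.22 (SE 0.0899, adjusted p = 1.27e-06 by the edgeR quasi-likelihood F test, BH-adjusted). PECAM1, another endothelial marker, was measured at 1.28, 1.27 and 1.07 CPM in siControl and at 10.5, 9.27 and 9.03 CPM in siPVT1. VWF had 17 to 31 counts in siControl and 71 to 78 in siPVT1, KDR had 21 to 38 and 44 to 61, and CLDN5, the fourth endothelial marker of the list, was at 0 in all libraries. The part of other cells in the CDH5 values was not tested. The 2 cadherins called lower, CDH16 and CDH17, had 7 to 12 counts in the siControl libraries and at most 1 in a siPVT1 library. With the filterByExpr filter, or with any siControl library left out, 5 to 7 cadherins of the list were tested in place of 9. CDH16 and CDH17 then had too few counts to be tested, and 0 cadherins of the list were called lower.

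Partners of classical cadherins at adherens junctions moved in both directions. Of 12 tested catenins and nectins, 6 were higher and 3 lower at the adjusted p, where 57.9% of all genes tested changed. Both thresholds were passed by 3 and 2 of these, 41.7% of the list beside 21.5% of all genes tested. NECTIN2 was measured at 66.1, 69.0 and 65.3 CPM in siControl and at 169.8, 169.6 and 179 CPM in siPVT1, a log2 fold change of 1.37 (SE 0.0575, adjusted p = 1.43e-06 by the edgeR quasi-likelihood F test, BH-adjusted). NECTIN1 was measured at 32.4, 32.3 and 30.8 CPM in siControl and at 10.02, 10.5 and 9.36 CPM in siPVT1, a log2 fold change of −1.68 (SE 0.0773, adjusted p = 1.91e-06 by the same test). These immunoglobulin-like adhesion molecules of 1 family thus moved apart. JUP (plakoglobin) and ARVCF, both low, were also called higher, with log2 fold changes of 2.11 and 1.09, and NECTIN4 was called lower at −1.17 from at most 26 counts in a library. The call of NECTIN4 was lost in DESeq2 and without siControl replicate 3 or siPVT1 replicate 2, which leaves 1 gene of the list called lower.

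VIM, which encodes the intermediate filament protein vimentin, was among the most abundant transcripts. It was measured at 4446, 4243 and 4463 CPM in siControl and at 8239, 7133 and 6035 CPM in siPVT1 replicates 1, 2 and 3. All siPVT1 libraries lay well above siControl, with replicate 1 highest and replicate 3 lowest. The mean rose from 4384 ± 123 (SD, n = 3) to 7136 ± 1102 CPM (SD, n = 3), a log2 fold change of 0.70 (SE 0.105, 95% interval 0.46 to 0.95, adjusted p = 0.000638 by the edgeR quasi-likelihood F test, BH-adjusted). VIM passed the adjusted p of a change from 0 under each alternative run, with log2 fold changes from 0.55 to 0.79, and did not pass the test against a 2-fold change. By CPM per kilobase it ranked 21 of 16176 genes in siControl and 19 in siPVT1.

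FN1, which encodes fibronectin, was the only one of the 10 called higher at both thresholds. It was measured at 4174, 4282 and 4106 CPM in siControl and at 11588, 9446 and 7178 CPM in siPVT1 replicates 1, 2 and 3. Every siPVT1 library lay far above siControl, but the siPVT1 libraries differed widely from each other. The mean rose from 4187 ± 89.0 (SD, n = 3) to 9404 ± 2205 CPM (SD, n = 3), 2.25 times the siControl level by the fit, with a log2 fold change of 1.17 (SE 0.151, 95% interval 0.82 to 1.51, adjusted p = 0.000283 by the edgeR quasi-likelihood F test, BH-adjusted). Without siPVT1 replicate 1 the log2 fold change was 0.97 (adjusted p = 0.000159 by the same test), under the fold threshold, and in a test against a 2-fold change FN1 did not pass.

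FN1 took 0.431%, 0.465% and 0.428% of all counts in the siControl libraries and 1.10%, 0.905% and 0.678% in siPVT1 replicates 1, 2 and 3. Its rank by counts among all genes went from 9, 8 and 9 to 3, 5 and 6. The ratio of FN1 to VIM per kilobase was 0.282, 0.303 and 0.277 in siControl and 0.423, 0.398 and 0.358 in siPVT1, so FN1 was raised more than VIM in each siPVT1 library. VIM (ENSG00000026025) lies at 17228241 to 17237593 on chromosome 10 (plus strand), and FN1 (ENSG00000115414) at 215360440 to 215436073 on chromosome 2 (minus strand), in GRCh38. The exons of VIM share 656 bases with the antisense lncRNA VIM-AS1, which was measured at 10.8, 13.5 and 9.17 CPM in siControl and at 17.2, 16.3 and 17.6 CPM in siPVT1. VIM-AS1 passed the adjusted p (log2 fold change 0.61, adjusted p = 0.0053 by the edgeR quasi-likelihood F test, BH-adjusted), and without a stated strand setting its reads cannot be told apart from those of VIM in the shared stretch.

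In FN1, VIM, ZEB1, TWIST1, TWIST2 and CDH2, siPVT1 replicate 1 lay farthest from siControl and replicate 3 nearest, with replicates 1 and 2 almost level for TWIST2. Of the 2248 genes called higher, replicate 1 was the farthest library in 59.1% and replicate 3 the nearest in 66.9%, so this order was frequent over the whole table. SNAI1 and SNAI2 went against it, with replicate 3 the lowest library of both. Among the 1833 genes called lower, replicate 1 was farthest in 49.3% and replicate 3 in 23.7%.

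The promoters of FN1, VIM and ZEB1 are shown because these genes rose, with replicate 1 highest and replicate 3 lowest in siPVT1, and because SNAI, ZEB and TWIST factors read E-boxes. Each run covers the 250 bases before the annotated start, from RefSeq (GRCh38.p14), 5′ to 3′ on the strand of the gene. Capitals mark cAMP response elements (CRE) and E-boxes of the form CACCTG or its reverse complement CAGGTG. Other forms of the E-box were neither marked nor counted. TWIST2 rose with the same order of libraries, and ZEB2 rose too. The windows of TWIST2, ZEB2 and CDH2 held neither marked motif and are not printed. FN1 is at chr2:215436069-215436318 on the minus strand, VIM at chr10:17227991-17228240 on the plus strand, and ZEB1, whose most upstream of 7 annotated starts was taken, at chr10:31318167-31318416 on the plus strand.
FN1: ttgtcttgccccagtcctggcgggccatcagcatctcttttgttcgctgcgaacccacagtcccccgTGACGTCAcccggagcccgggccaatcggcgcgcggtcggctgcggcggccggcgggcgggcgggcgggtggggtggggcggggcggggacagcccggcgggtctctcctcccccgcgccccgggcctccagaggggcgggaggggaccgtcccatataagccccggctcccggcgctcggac
VIM: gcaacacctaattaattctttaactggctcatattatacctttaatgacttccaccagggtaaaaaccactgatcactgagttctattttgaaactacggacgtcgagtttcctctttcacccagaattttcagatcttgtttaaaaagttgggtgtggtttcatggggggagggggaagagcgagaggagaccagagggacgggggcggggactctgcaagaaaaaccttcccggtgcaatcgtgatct
ZEB1: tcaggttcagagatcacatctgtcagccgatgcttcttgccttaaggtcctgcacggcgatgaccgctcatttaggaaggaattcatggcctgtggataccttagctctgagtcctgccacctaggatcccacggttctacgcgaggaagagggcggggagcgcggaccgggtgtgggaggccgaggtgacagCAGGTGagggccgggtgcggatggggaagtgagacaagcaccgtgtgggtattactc
The FN1 window held a CRE (TGACGTCA) at −183, a motif found on either strand in 1.75% of 27305 genes with a window, and 6 GC boxes (GGGCGG), found at least once in 42.2% of them. The ZEB1 window held an E-box of this form, read as CAGGTG (reverse complement CACCTG), at −57. Of the 10 genes, CDH2, FN1, TWIST2, VIM, ZEB1 and ZEB2 had a window, and this form of the E-box was found in 1 of these 6 and in 17.5% of all genes with a window. The AP-1 motif TGACTCA was found in none of the 6 and in 4.15% of all. In the list of epithelial junction genes 10 of 22 windows held this form of the E-box, and in the list of mesenchymal effectors 2 of 26 did. A match describes the letters of the window and is no measured site.

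Genes commonly raised in mesenchymal cells mostly rose with VIM and FN1. Of 36 tested effectors, 28 were higher and 2 lower at the adjusted p, beside 29.5% and 28.4% of all genes tested. Both thresholds were passed by 15 and 1 of these, beside 11.8% and 9.64% of all genes tested. The median log2 fold change was 0.78 beside 0.001 for all genes tested. This list, like the others, was drawn up with earlier results of these data known. GREM1, a secreted antagonist of bone morphogenetic proteins, was measured at 309, 305 and 311 CPM in siControl and at 796, 848 and 816 CPM in siPVT1, a log2 fold change of 1.41 (SE 0.0541, adjusted p = 1.03e-06 by the edgeR quasi-likelihood F test, BH-adjusted). NT5E, the ecto-nucleotidase CD73, was measured at 785, 745 and 772 CPM in siControl and at 1842, 1792 and 1722 CPM in siPVT1, with a log2 fold change of 1.22. COL1A1, a fibrillar collagen chain, had a log2 fold change of 2.15 from a low level of 3.55, 3.41 and 3.95 CPM in siControl. The effector called lower was TGFBI, a secreted protein induced by TGF-β, at 773, 770.5 and 779.9 CPM in siControl and 330, 314 and 332 CPM in siPVT1, a log2 fold change of −1.25 (SE 0.0534). CNN1, POSTN, THY1, DCN, COL1A2 and COL3A1 were too low to be tested. Of the stromal markers that this list shares with that of other cells, DCN had at most 1 count in a library, LUM had 2 to 24, and PDGFRB rose from 90, 89 and 89 counts to 260, 293 and 315.

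Most receptors and matrix partners of fibronectin were higher, like FN1. Of 18 tested genes, which share FBN1, ITGA5, ITGAV and ITGB3 with the list of effectors, 13 were higher and 3 lower at the adjusted p, beside 29.5% and 28.4% of all genes tested. Both thresholds were passed by 8 and 1 of these, beside 11.8% and 9.64% of all genes tested. With scaling by the total count 5 were called higher in place of 8. FBN2, a fibrillin of the microfibrils, was measured at 215.6, 215.5 and 216.3 CPM in siControl and at 452, 465 and 454 CPM in siPVT1, a log2 fold change of 1.08 (SE 0.0508, adjusted p = 1.99e-06 by the edgeR quasi-likelihood F test, BH-adjusted). FBLN1, a fibronectin-binding glycoprotein, and SDC4, a syndecan of focal adhesions, had log2 fold changes of 1.54 and 1.18. ITGA5, which pairs with ITGB1 as the main fibronectin receptor, was measured at 309, 309 and 311 CPM in siControl and at 727, 624 and 549 CPM in siPVT1, and ITGB1 at 1734, 1579 and 1734 CPM against 2677, 2585 and 2422 CPM. Both receptor chains thus lay higher in every siPVT1 library, with log2 fold changes of 1.03 and 0.61, and were named for this role and not by their rank. TGM2, the transglutaminase that links fibronectin to integrins, was called lower, at 1946, 1895 and 1923 CPM in siControl and 959, 798 and 719 CPM in siPVT1 (log2 fold change −1.22, SE 0.101). The other two that fell were the syndecan SDC1 and the urokinase receptor PLAUR, with log2 fold changes of −0.65 and −0.49.

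Other intermediate filament genes moved in both directions, with 5 of 14 tested genes higher and 4 lower at the adjusted p, a share near the 57.9% of all genes tested. NES, which encodes nestin, a partner of vimentin in mixed filaments, was measured at 12.5, 13.01 and 12.1 CPM in siControl and at 55.0, 55.3 and 54.8 CPM in siPVT1, a log2 fold change of 2.13 (SE 0.0657, adjusted p = 5.14e-07 by the edgeR quasi-likelihood F test, BH-adjusted). KRT19, a simple epithelial keratin, was measured at 7.98, 7.79 and 8.90 CPM in siControl and at 55.0, 40.4 and 26.2 CPM in siPVT1, a log2 fold change of 2.30 (SE 0.247). KRT8 and KRT18 also rose, with log2 fold changes of 0.32 and 0.37 (adjusted p = 0.00559 and 0.00147 by the edgeR quasi-likelihood F test, BH-adjusted). KRT7 and KRT5 went the opposite way. KRT7, a simple epithelial keratin, fell from 240, 210.3 and 235 CPM in siControl to 167, 159 and 156 CPM in siPVT1 (log2 fold change −0.51), and KRT5, a basal keratin with at most 41 counts in a library, was called lower at −2.35, a call lost without siControl replicate 1 or 3. PLEC, the plakin that links filaments to junctions, was called lower, at 1846, 1779.9 and 1819.6 CPM in siControl and 812, 747 and 701 CPM in siPVT1 (log2 fold change −1.27, SE 0.0678).

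Epithelial junction genes rose more often than they fell. Of 32 tested junction, polarity and surface genes, 16 were higher and 5 lower at the adjusted p, beside 29.5% and 28.4% of all genes tested. Both thresholds were passed by 10 and 1 of these, beside 11.8% and 9.64% of all genes tested, and the median log2 fold change was 0.34. CLDN1, a tight junction claudin, was measured at 373, 359 and 372 CPM in siControl and at 764, 761 and 752 CPM in siPVT1, a log2 fold change of 1.05 (SE 0.0516, adjusted p = 2.53e-06 by the edgeR quasi-likelihood F test, BH-adjusted). CLDN4, a claudin common in ovarian carcinoma, had a log2 fold change of 1.64 from 5.78, 6.07 and 6.41 CPM in siControl, and PARD6B, a polarity protein, had one of 2.25 from 7.50, 7.37 and 7.45 CPM. The gene called lower, CLDN6, had at most 13 counts in a library. With scaling by the total count 6 genes were called higher in place of 10. Without siPVT1 replicate 2, 9 of 31 tested genes were lower at the adjusted p in place of 5, and 5 were called lower in place of 1.

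Among 13 tested transcription and splicing factors of the epithelial state, 3 were higher and 3 lower at the adjusted p, beside 29.5% and 28.4% of all genes tested. The share past both thresholds was 23.1%, beside 21.5% of all genes tested, and the median log2 fold change was −0.23. EHF, an epithelial ETS factor, was measured at 2.75, 2.30 and 2.88 CPM in siControl and at 22.4, 19.3 and 11.6 CPM in siPVT1, a log2 fold change of 2.74 (SE 0.248, adjusted p = 4.30e-05 by the edgeR quasi-likelihood F test, BH-adjusted). FOXA2 and ELF3 were also called higher from under 1 CPM in siControl, and the call of ELF3, whose libraries overlapped between the groups, was lost with the replicate block and without siControl replicate 1 or 2 or siPVT1 replicate 1 or 2. The 3 lower at the adjusted p were KLF4, KLF5 and FOXA1, with log2 fold changes of −0.82, −0.23 and −0.65. KLF4 and KLF5 had the highest CPM of the list, with means of 58.0 and 35.7 in siControl and 32.9 and 30.5 in siPVT1. None of the 13 was called lower, but without siPVT1 replicate 2, 2 of 12 tested genes were. The median turned positive, at 0.0506 to 0.22, without siControl replicate 2 or 3 or without siPVT1 replicate 2 or 3, and 1 gene was lower at the adjusted p without siControl replicate 1 or 3. OVOL1 and OVOL2, which repress ZEB1, had at most 3 counts in a library.

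**Figure D4:**
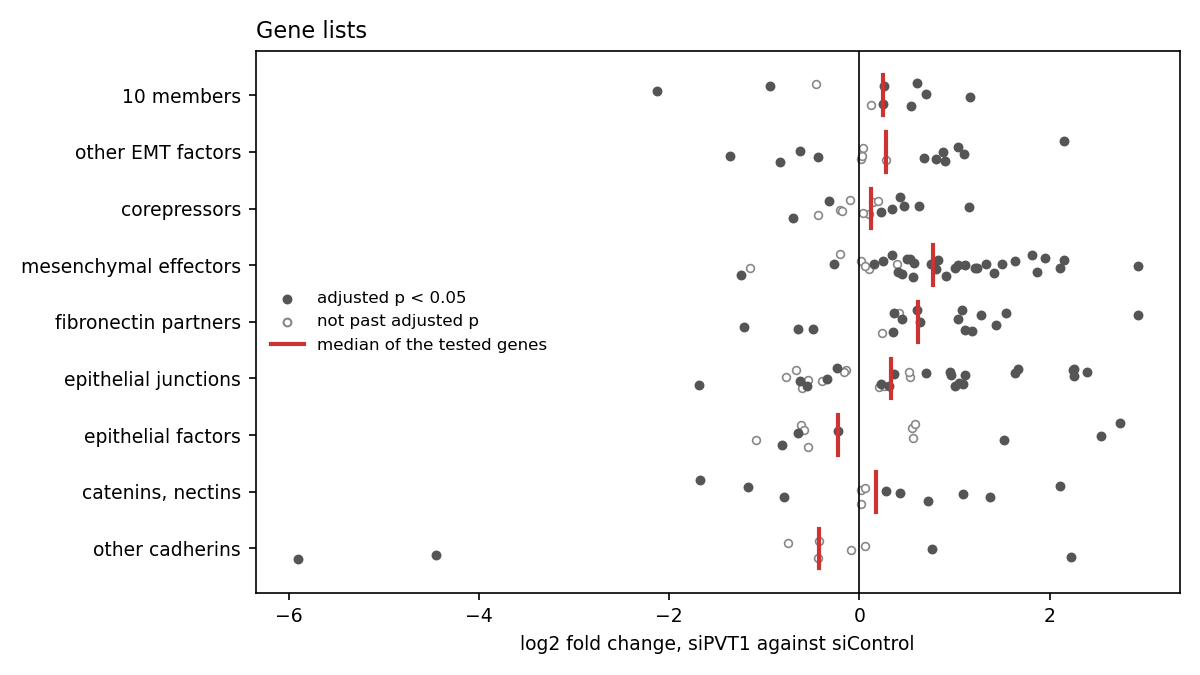
Log2 fold change of every tested gene of 9 lists in siPVT1 against siControl. Filled points passed the adjusted p, open points did not, and red lines are the medians of the tested genes. The medians are 0.78 for mesenchymal effectors, 0.62 for fibronectin partners, 0.34 for epithelial junctions and 0.25 for the 10 genes described first.

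By level per kilobase of exon union, the order of the 10 genes in siControl was VIM (847 CPM per kilobase), FN1 (243), CDH2 (33.3), SNAI2 (18.98), ZEB1 (13.02), TWIST2 (7.16), SNAI1 (4.34), TWIST1 (3.62), ZEB2 (2.99) and CDH1 (0.143). In siPVT1 it was VIM (1379), FN1 (546), CDH2 (36.1), ZEB1 (15.5), SNAI2 (9.91), TWIST2 (8.51), TWIST1 (5.52), ZEB2 (4.37), SNAI1 (0.990) and CDH1 (0.106). On this length SNAI2 and ZEB1 changed places, and SNAI1 went from the seventh place to the ninth. With the longest transcript as length, SNAI1 was the ninth in both groups, and SNAI2 went from the fourth place to the seventh, below TWIST2 and ZEB2. ZEB2 then stood at 8.17 CPM per kilobase in siControl and at 11.9 in siPVT1, above TWIST1, so the places of these genes depend on the length. In siControl the SDs ranged from 0.0299 for CDH1 to 23.7 CPM per kilobase for VIM, and in both groups the means of each pair of neighbours in the order by exon union differed by more than the sum of their SDs (n = 3).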

How the data were processed

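The 6 libraries and their groups were taken from the sample labels, and dose, time and siRNA pools from the study's methods. Nothing states that replicates came from separate cultures, so p-values measure the spread between these libraries, which may be technical. From mRNA libraries the authors read 75 bases from one end, aligned the reads with STAR to GENCODE v35 (GRCh38.p13) and deposited estimated counts from Salmon for each gene symbol, rounded to whole numbers and not normalized. The submitters' processing notes name STAR 2.7.3a, Salmon 0.14.1 and bcl2fastq 2.20.0. The strand setting is not given in the sources used here, and it decides how reads of antisense partners were counted.

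From these counts edgeR 4.0.16 (R 4.3.3) was run on the whole table after TMM normalization, by a quasi-likelihood F test in which the siRNA was the only term. The filter asked for 5 or more normalized counts in 3 or more libraries and kept 19008 of 59653 genes, and 25268 had 0 counts in all libraries. Called genes had a p-value under 0.05 after Benjamini-Hochberg adjustment over all genes tested and at least a 2-fold change in either direction, as in the study. Standard errors were taken as the size of the log2 fold change over the square root of F. Total counts were 31668597, 28383171 and 32324829 in siControl and 29564562, 29736725 and 35059576 in siPVT1 replicates 1, 2 and 3. The chi-square over genes between replicates of a group was 1.79 to 50.5 per degree of freedom, more than sampling noise, and each replicate was counted as 1 sample. Lengths and positions came from GENCODE v44 (GRCh38), where 38134 symbols were found unchanged and 463 by an older symbol, and 16176 genes could be ranked per kilobase.

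The members and lists were chosen with earlier results of these data known. Named were the members, PVT1 and, from each other list, up to 3 genes higher and 3 lower past both thresholds with the smallest p. Genes named outside this rule, among them ITGA5, ITGB1, EPCAM, ERBB2, MUC16, ESRP1, MAL2, KLF4, KLF5, FOXA1, KRT7, KRT8, KRT18, SDC1, PLAUR, markers of other cells, antisense and microRNA loci, were named for their role or after their values were seen. The procedure was tested on simulated data. The alternatives were DESeq2 1.42.0, its size factors, scaling by the total count, no filter, filterByExpr, the replicate number as a block, a test against a 2-fold change, leaving out each library, and the longest transcript as length.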

Additional observations from a re-analysis of the deposited data

How the results depend on the processing

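Of the 10 genes, 2 passed both thresholds in all alternatives but 2. Scaling by the total count called 3, adding SNAI2, and the test against a 2-fold change called 1, SNAI1, and 1976 genes in all in place of 4081. With each library left out, 2 of the 10 were called each time, SNAI1 with FN1 or, without siPVT1 replicate 1, SNAI1 with SNAI2, and 3507 to 4239 genes in all. The number past the adjusted p moved from 8 to between 6 and 9 when a library was left out, to 7 in DESeq2, to 7 without a filter and to 6 with scaling by the total count, which moved the median of all genes to −0.148 and the share of called genes that were higher from 55.1% to 43.8%. The losses were ZEB1 and TWIST2, and the gain, without siPVT1 replicate 3, was CDH2. The log2 fold change of CDH1 ran from −2.11 to 0.14 with a library left out. Signs reversed for CDH1 without siPVT1 replicate 3 (0.14) and for CDH2 with scaling by the total count (−0.032). In the tests of a change from 0, so without the test against a 2-fold change, 102 single-gene values of the 10 kept direction and side of the adjusted p, 15 lost it, 1 gained it and 2 reversed. For named genes of other lists 470 kept both and 19 lost the adjusted p, those of ELF3, CLDN6, NECTIN4, KRT5, CD14 and CALB2. Over all genes tested, same-numbered libraries did not deviate together (correlations −0.04, 0.04 and 0.00 for numbers 1, 2 and 3), and not every library correlated best with its own number. Some low genes, LYZ and EPCAM among them, were nonetheless highest in replicate 2 of both groups. CDH1, MUC16, ESRP1 and MAL2 were highest in replicate 2 of siPVT1 and lowest in replicate 2 of siControl. The replicate block gave 2 of the 10 called, 7 past the adjusted p and 3924 genes called. The median log2 ratio of CDH2 to CDH1 in siControl was 7.92, 8.68 with the longest transcript as length, and 7.77 to 8.01 with a library left out. In siPVT1 it was 9.07, 9.82 with the longest transcript, and 8.13 to at least 10.1 with a library left out, an alternative added after the values were seen. Counts of CDH1, SNAI3 and several epithelial factors were few, and those of CDH1 also varied widely among the siPVT1 libraries, from 0 to 43.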
